A study of Mus musculus with 2 samples.

Results

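The immediate early genes followed here are Fos, Fosb, Jun, Junb, Jund, Egr1, Ier2, Dusp1, Zfp36 and Nr4a1, a set of 10 chosen by name; all 10 are among the 27998 genes of the count files, and each had UMIs in both libraries. Immediate early genes are transcribed within minutes of a stimulus without new protein synthesis, through factors such as SRF and CREB that already sit on their promoters. Their transcripts are short-lived, and several of the proteins shut the response off again. In leukocytes they follow antigen receptor, Toll-like receptor and growth factor signals, and they are also known to be switched on while a tissue is digested at body temperature.

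CD45+ cells were sorted from brains of untreated C57Bl/6 mice (C57BL/6J in the study's methods) at postnatal day 21. The WT library (galc+/+ littermates) and the twi library (galc-/-, the twitcher model of globoid cell leukodystrophy, in which all cells lack functional galactosylceramidase) each came from pooled animals and were made by the 10x Genomics 3′ v2 assay, which counts each transcript once by its unique molecular identifier (UMI). With a single library for each genotype the data hold no error between animals, and nothing was tested; every interval below is a 95% interval that covers counting error only. The labels and the study's methods describe the enzymatic digestion differently in time and enzyme, and no undigested cells were analysed here, so levels held in the brain and levels reached during isolation cannot be told apart.

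The WT library held 3749714 UMIs in 1278 barcodes and the twi library 4807539 UMIs in 1220, with 0 shared barcodes. Barcodes with at most 15% mitochondrial UMIs were kept, 1271 and 1207 of them. Galc had 4 UMIs in WT and 8 in twi, which checks nothing, since a 3′ count does not read the mutation. A cell was put in a class when it carried at least 2 distinct markers of that class's list and fewer of every other. T cells were called CD8 or CD4 from a UMI of Cd8a or Cd8b1, or of Cd4, without the other. The classes differed strongly in size: CD8 T cells numbered 106 in WT and 408 in twi, CD4 T cells 46 and 64, NK cells 96 and 95, B cells 569 and 172, neutrophils 230 and 65, monocytes 35 and 56, and microglia 30 and 18. T cells that carried transcripts typical of IL-17-producing γδ T cells numbered 10 and 42, too few in WT for more than rough values. The label microglia was backed in WT by a UMI of P2ry12 in 27 of 30 cells and of Tmem119 in 26. It was less fully backed in twi, with 13 and 11 of 18 cells, while C1qc had a UMI in 29 WT and 18 twi cells. Only 15 WT and 12 twi cells of this label carried fewer than 2 markers of every other class. Transcripts of other cells were present too. S100a8 and S100a9 were most abundant in neutrophils. They made up 2229 CPM (counts per 1000000 UMIs) of WT B cells against 290 CPM in twi B cells. Microglia had 22245 CPM of them in WT and 325 CPM in twi. Monocytes had 17885 CPM in WT and 386 CPM in twi, where their own expression and RNA of other cells cannot be told apart. Xist was seen in the twi pool and not in the WT pool, so the animals' sexes differed between the pools.

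The promoters of 8 of the 10 genes were read from the RefSeq table of promoters on GRCm38.p6, the build that matches mm10 in the submitters' processing notes. Each entry spans 250 bases before to 50 bases after the start of transcription. The promoters of Fos, Dusp1 and Zfp36 are shown because these genes, which encode an AP-1 subunit, a MAP kinase phosphatase and an mRNA decay factor, were all higher in twi neutrophils, as described below. They lie at chr12:85473640-85473939 on the plus strand, chr17:26508423-26508722 on the minus strand and chr7:28379179-28379478 on the minus strand, and are written 5′ to 3′ in the direction of the gene. Capitals mark TGACG, the core that CREB-type factors bind, on either strand; the CArG box, which SRF binds; and TATAA.
Fos: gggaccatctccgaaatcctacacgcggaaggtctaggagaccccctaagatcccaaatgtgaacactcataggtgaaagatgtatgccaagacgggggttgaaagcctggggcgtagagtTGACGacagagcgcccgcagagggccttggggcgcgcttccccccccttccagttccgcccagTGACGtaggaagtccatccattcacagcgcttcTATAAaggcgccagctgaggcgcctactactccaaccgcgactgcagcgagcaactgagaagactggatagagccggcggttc
Dusp1: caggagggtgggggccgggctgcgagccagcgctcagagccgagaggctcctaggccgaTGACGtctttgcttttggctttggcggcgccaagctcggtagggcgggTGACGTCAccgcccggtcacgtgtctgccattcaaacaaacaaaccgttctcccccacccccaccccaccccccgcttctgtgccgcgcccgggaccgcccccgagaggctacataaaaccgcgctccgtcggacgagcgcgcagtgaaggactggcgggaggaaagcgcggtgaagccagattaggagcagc
Zfp36: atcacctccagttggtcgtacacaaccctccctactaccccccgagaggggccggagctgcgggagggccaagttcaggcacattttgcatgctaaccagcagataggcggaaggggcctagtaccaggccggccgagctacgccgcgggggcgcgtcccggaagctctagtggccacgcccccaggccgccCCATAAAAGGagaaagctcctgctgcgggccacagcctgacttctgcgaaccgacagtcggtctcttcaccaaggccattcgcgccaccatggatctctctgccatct

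In the Fos promoter TGACG began at -129 and -66 from the start and TATAA at -33. Dusp1 held TGACG at -191, and at -143 and -140 on opposite strands, which together read as a palindrome. Zfp36 held the CArG box at -58 and no TGACG. Among the other members, TGACG was also found in Fosb, Junb and Nr4a1 but not in Jun or Jund. TGACG lay in 20.8% of all 32851 promoters of this length, TATAA in 24.9% and the CArG box in 1.63%. The AP-1 motif TGANTCA, present in 7.81% of promoters, was in none of these 8. A match describes the letters of the window and is not a binding site.

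In GENCODE vM21 (GRCm38), Fos lies at chr12:85473890-85477273, Fosb at chr7:19302696-19310051, Jun at chr4:95049034-95052222, Junb at chr8:84974484-84978718 and Jund at chr8:70698949-70700616. Ier2 lies at chr8:84661331-84662852, Dusp1 at chr17:26505590-26562128, Zfp36 at chr7:28376784-28380253 and Nr4a1 at chr15:101254269-101274795. The annotated span of Dusp1 overlaps other gene models on its strand, so its counts are less certain than those of the other members.

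In all kept cells together, the 10 genes made up 6121 CPM in WT (22902 UMIs) and 4439 CPM in twi (21269 UMIs), a ratio of 0.725 (0.712 to 0.739). All 10 had a pooled ratio under 1, and 4 were at least 1.5-fold lower in twi, where 15.9% of all genes with at least 20 UMIs were at least 1.5-fold lower and 11.5% at least 1.5-fold higher. These were Zfp36 (439 CPM in WT and 218 CPM in twi, ratio 0.496), Fosb (123 and 67.6 CPM, ratio 0.550), Fos (912 and 506 CPM, ratio 0.555) and Jund (1379 and 815 CPM, ratio 0.591). Junb, with the most UMIs over both libraries together, hardly differed, with 1205 CPM in WT and 1185 CPM in twi and an interval of the ratio from 0.945 to 1.02. Fewer cells of a class and less RNA per cell are mixed in these sums.

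The pooled ratio moved with the makeup of the libraries. With the levels of each of the 8 classes weighted by the WT class shares in both libraries, the summed ratio was 0.971, and with the twi shares 0.849. Keeping the WT levels and changing only the shares from WT to twi gave 0.835. Zfp36 changed most: its ratio was 0.496 pooled, 1.11 at the WT shares and 0.936 at the twi shares. In WT, 38.0% of its UMIs came from neutrophils and 37.5% from B cells, the classes that were smaller in twi. Jund, of which B cells held 63.3% of the WT UMIs, went from 0.591 to 0.804 at the WT shares. Nr4a1 went from 0.862 to 1.73. Fos and Fosb were still below 1 with either set of shares, Fos at 0.827 and 0.579 and Fosb at 0.631 and 0.662 at the WT and twi shares. So were Jund (0.804 and 0.830), Egr1 (0.832 and 0.677), Ier2 (0.901 and 0.913) and, barely, Jun (0.985 and 0.994).

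**Figure D1:**
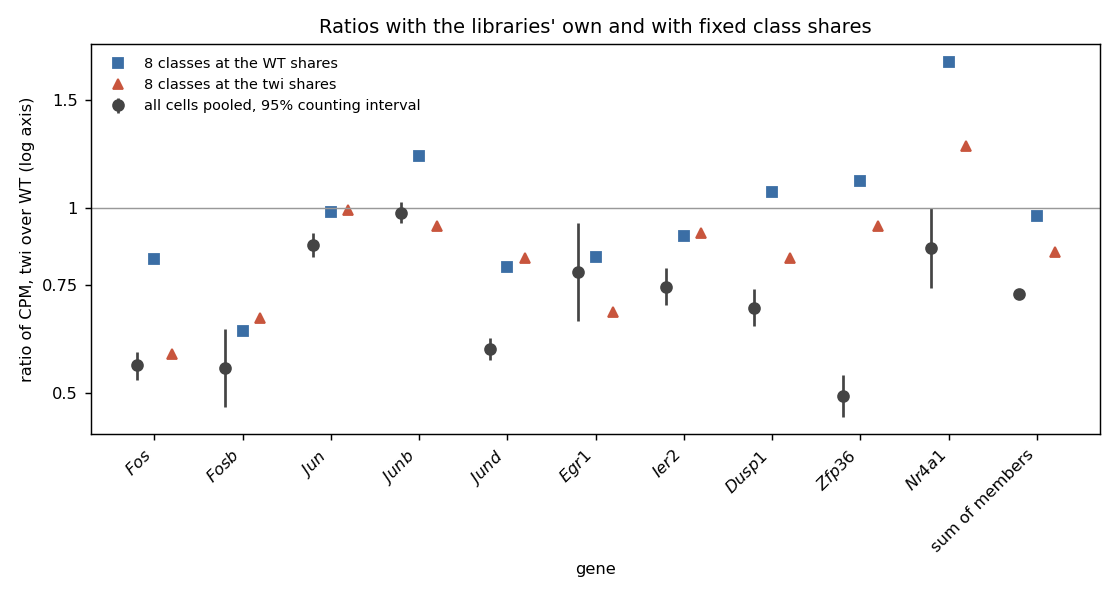
Ratio of CPM in twi over WT (log axis) for each gene and their sum: all cells pooled with the 95% counting interval (circles), and the 8 classes weighted by the WT class shares (squares) or the twi class shares (triangles). All pooled points lie under 1, whereas at the WT shares Junb, Dusp1, Zfp36 and Nr4a1 lie above 1.

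Within classes, the summed level was lower in twi in 6 classes, higher in neutrophils and the same within counting error in monocytes. It was 3474 CPM in WT and 2857 CPM in twi CD8 T cells (ratio 0.822, 0.777 to 0.871), 4825 and 3580 CPM in CD4 T cells (0.742, 0.672 to 0.820) and 8600 and 5436 CPM in γδ T cells (0.632, 0.548 to 0.731). NK cells had 6636 and 5283 CPM (0.796, 0.748 to 0.847) and B cells 6769 and 6032.5 CPM (0.891, 0.853 to 0.931). The extremes were myeloid: neutrophils had 5542 CPM in WT and 8065 CPM in twi (1.46, 1.37 to 1.54), monocytes 6673 and 6720 CPM (1.01, 0.944 to 1.07) and microglia 10064.5 and 4301 CPM (0.427, 0.382 to 0.477). Microglia and γδ T cells, with overlapping intervals, were thus the highest in WT and neutrophils the highest in twi, and CD8 T cells were the lowest in both.

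**Figure D2:**
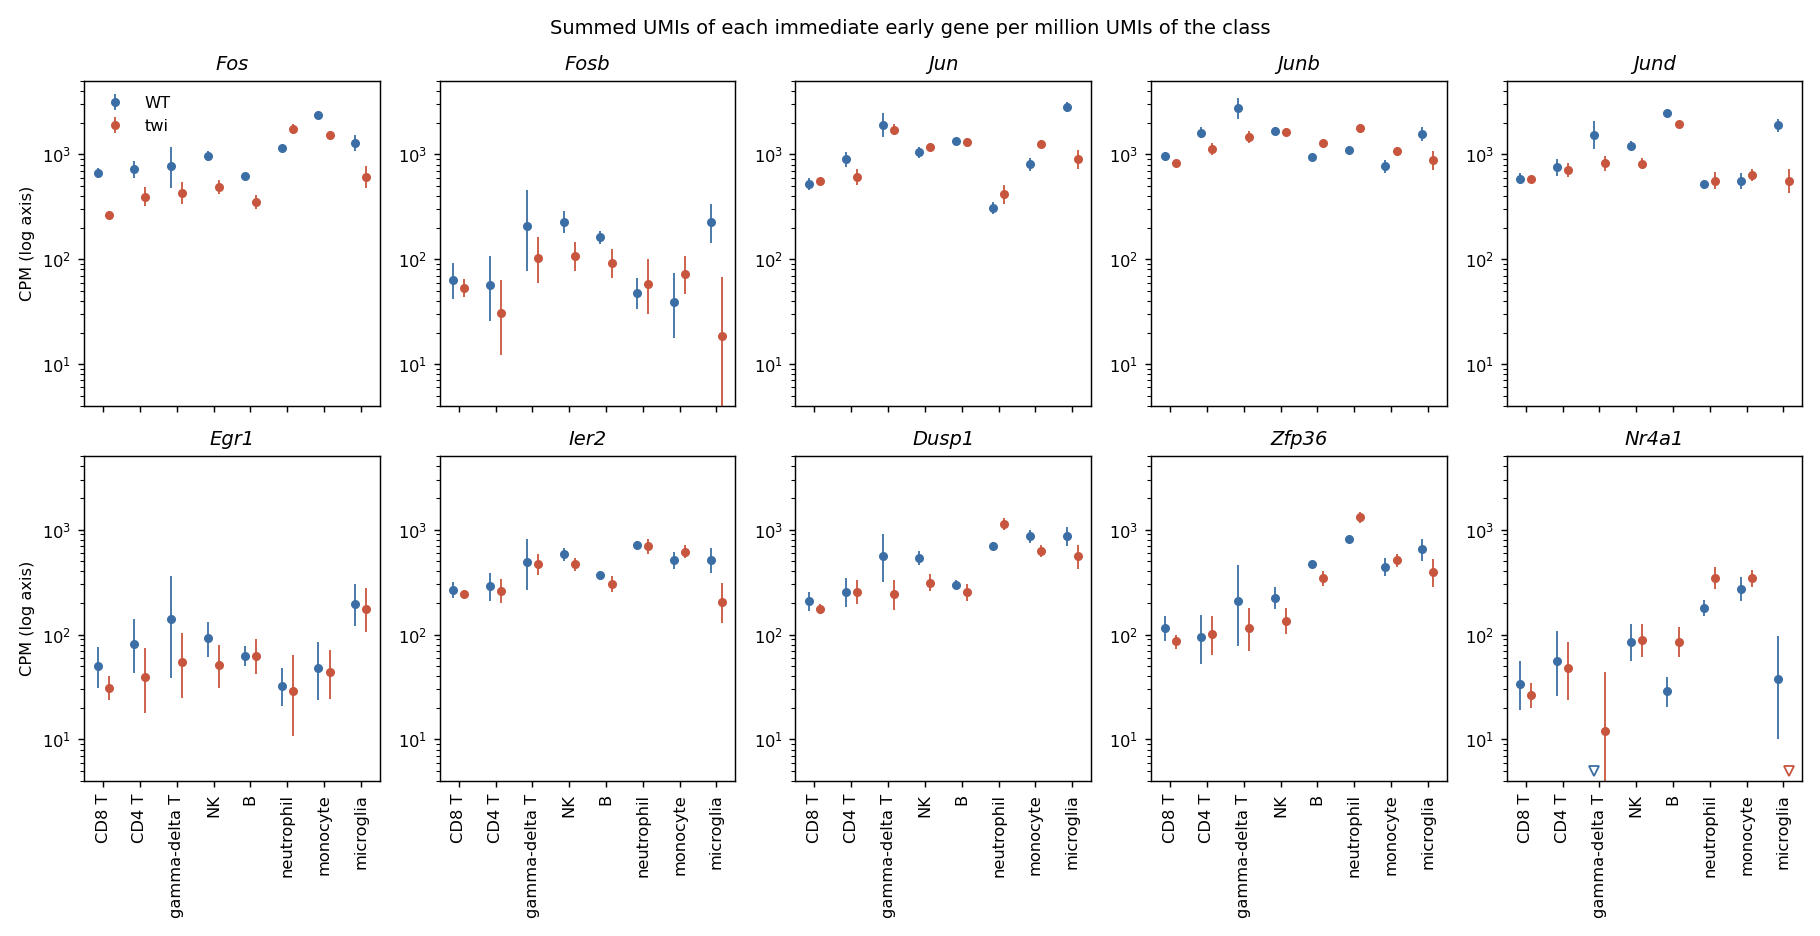
CPM of each gene (log axis) in the 8 classes, WT in blue and twi in red, with exact 95% Poisson intervals; open triangles at the bottom edge mark 0 UMIs, and intervals are not drawn below 4 CPM. Fos is highest in monocytes, neutrophils and microglia in both libraries, Jund is highest in B cells, and the twi points lie above the WT points for several genes in neutrophils.

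Counted gene by gene, with genes of at least 20 UMIs over both libraries, the members moved as follows. In CD8 T cells 0 of 10 members were at least 1.5-fold higher (21.8% of all genes) and 2 at least 1.5-fold lower (8.79% of all genes). In CD4 T cells the counts were 0 and 2 of 9 members, beside 14.4% and 11.5% of all genes, with Fosb below the UMI minimum. Among γδ T cells they were 0 and 6 of 8, beside 20.8% and 17.2%, with Egr1 and Nr4a1 below the minimum. NK cells had 0 and 5 of 10, beside 11.4% and 12%. B cells had 1 and 2 of 10, beside 7.55% and 13.7%. Neutrophils had 5 and 0 of 10, beside 10.8% and 30.9%, against the direction of most genes past the fold in that class. Monocytes had 2 and 1 of 10, beside 12.2% and 13.1%, close to the shares of all genes, and microglia 0 and 8 of 9, beside 20.3% and 21.8%, with Nr4a1 below the minimum. The median member had a ratio of 1.44 in neutrophils, where the median of all genes was 0.905, and of 0.475 in microglia, where it was 0.992.

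**Figure D3:**
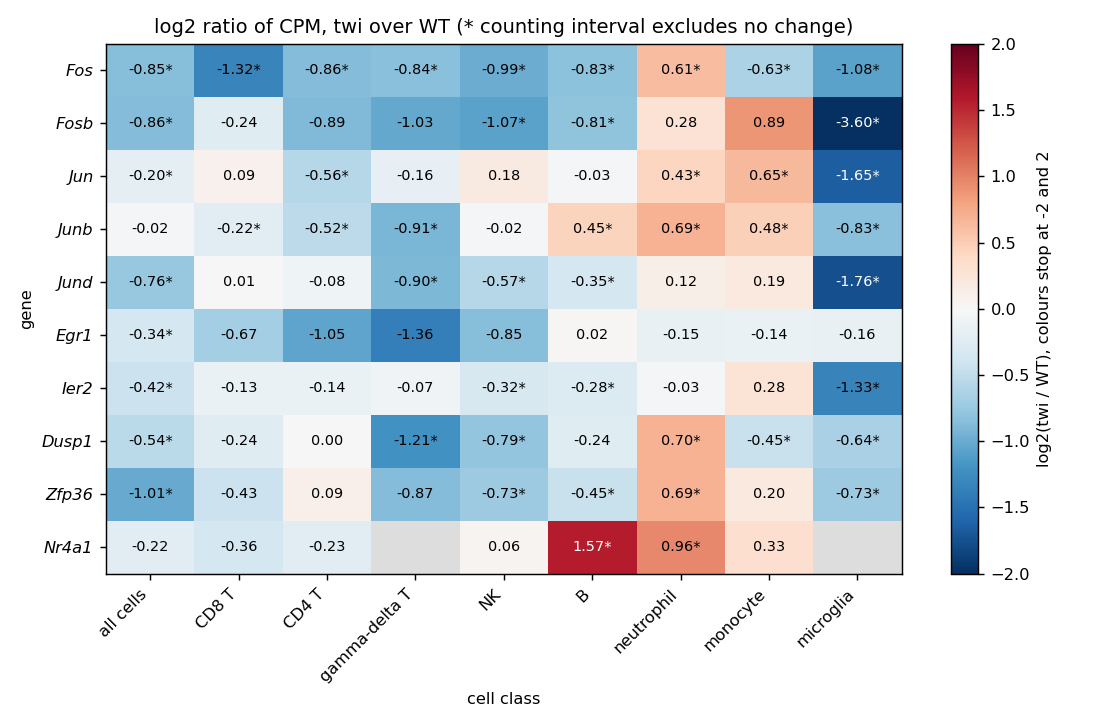
Grid of log2 ratios of CPM, twi over WT, for each gene (rows) in all cells and in the 8 classes (columns), red for higher and blue for lower in twi; an asterisk marks a 95% counting interval that excludes 0, and grey cells have 0 UMIs in 1 library. The neutrophil column is mostly red and the microglia column blue wherever it holds a ratio, and the Fos row is blue in every class but neutrophils.

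Among the AP-1 subunits, Fos differed in the same direction in most classes. Fos encodes the c-Fos protein, which binds DNA only when paired with a Jun protein. Its interval lay under 1 in 7 of the 8 classes and above 1 in neutrophils. In CD8 T cells Fos was 663 CPM in WT (293 UMIs) and 266 CPM in twi (512 UMIs), a ratio of 0.402 (0.347 to 0.465), the lowest of the classes. With each cell thinned to 1000 UMIs, so that depth was equal, 33.3% of WT and 22.8% of twi CD8 T cells had a Fos UMI. The intervals of these shares, 24.4 to 43.2% and 18.8 to 27.2%, overlapped. NK cells had 966 and 488 CPM (ratio 0.505), B cells 626 and 353 CPM (0.564), CD4 T cells 720 and 396 CPM (0.551) and monocytes 2365 and 1528 CPM (0.646). In cells with a Y-linked transcript and no Xist the ratio was 0.353 in B cells and 0.257 in CD4 T cells (31 WT and 12 twi cells). In the same subset it was nearer 1 in CD8 T cells (0.644) and NK cells (0.632). In γδ T cells, with 2 WT and 6 twi cells, it turned to 2.06. Monocytes were alone at the top in WT, with an interval of 2170 to 2572 CPM. In twi, neutrophils (1751 CPM) and monocytes had overlapping intervals at the top. No class is known to lack Fos, so the level of free Fos RNA could not be measured. Only the part that travels with neutrophil transcripts was estimated. At the proportion of Fos to S100a8 and S100a9 over all WT neutrophils, 9.09 of the 626 CPM in WT B cells would come with them. Free Fos RNA from other classes is not covered by this value.

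Fosb, a paralog of Fos, was much less abundant. Its highest level was 227 CPM in WT NK cells, against 108 CPM in twi NK cells (ratio 0.475, 0.314 to 0.712). The intervals of WT microglia (225 CPM), γδ T cells (210 CPM) and B cells overlapped with that of WT NK cells, so the first rank was not resolved. B cells had 162 and 92.3 CPM (0.570, 0.398 to 0.799). Microglia had 24 UMIs in WT and 2 in twi (ratio 0.0827, 0.00947 to 0.333), and in the other 5 classes the interval included 1.

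The Jun genes, whose proteins can pair with each other or with Fos proteins, behaved less uniformly than Fos. Jun hardly differed in CD8 T cells (527 CPM in WT, 562 CPM in twi), NK cells (1045 and 1180 CPM) and B cells (1335 and 1308 CPM), where each interval of the ratio included 1. It was higher in twi monocytes, at 804 CPM in WT and 1261 CPM in twi (1.57, 1.32 to 1.87), and lower in twi microglia, at 2818 and 901 CPM (0.320, 0.252 to 0.403). Without cells of a second class, which left 15 WT and 12 twi microglia, the ratio of Jun there was 0.169. Junb was higher in twi B cells (939 CPM in WT and 1285 CPM in twi, ratio 1.37), neutrophils (1094 and 1770 CPM, 1.62) and monocytes (769.5 and 1073 CPM, 1.39). In monocytes the direction turned to 0.983 without cells that carried markers of a second class, and the ratio was 1.94 with classes set by summed marker UMIs. Its intervals lay under 1 in CD8, CD4 and γδ T cells and microglia. Jund, which is often expressed without stimulation, was the main AP-1 transcript of B cells, with 2483 CPM in WT and 1947 CPM in twi (0.784, 0.727 to 0.845). It did not differ beyond counting error in CD8 T cells (586 and 588 CPM), and was lower in twi NK cells (1213 and 817 CPM, 0.673).

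The makeup of the AP-1 pool, which does not depend on the total of other genes, also differed in some classes. Fos and Fosb together were 25.9% of the UMIs of the AP-1 members in WT CD8 T cells (23.5 to 28.5%) and 13.9% in twi CD8 T cells (12.9 to 15.01%). NK cells went from 23.3% to 14.1%, B cells from 14.2% to 8.94% and monocytes from 53.0% to 35.0%, each with intervals that did not overlap between the libraries. The top 10% of cells held 56.3% of the Fos UMIs in WT and 54.5% in twi CD8 T cells, and 60.3% and 60.5% in B cells. In NK cells they held 41.2% in WT and 52.5% in twi, and in monocytes 40.6% and 45.7%. The intervals of the shares make no allowance for UMIs that cluster within cells. The intervals overlapped in the other classes. In neutrophils the share was 38.3% in WT (36.3 to 40.3%) and 39.7% in twi (36.5 to 42.9%), and in microglia 19.4% and 21.3%. CD4 T cells had 19.2% (16.2 to 22.4%) and 14.8% (12.2 to 17.8%), and γδ T cells 13.6% and 11.7%. None of these statements carries an error between animals.

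Egr1, a zinc finger transcription factor and a classic SRF target, was sparse, with 238 UMIs in WT and 240 in twi. Its ratio did not leave 1 beyond counting error in any of the 8 classes, from 0.390 in γδ T cells to 1.01 in B cells. In CD8 T cells the interval ran from 0.379 to 1.07. Ier2, an early gene with a nuclear product, was 713 CPM in WT and 698 CPM in twi neutrophils (0.979, 0.809 to 1.18). It was lower in twi NK cells (ratio 0.801, 0.646 to 0.994), where it turned to 1.08 after thinning, in twi B cells (0.823, 0.675 to 0.999) and in twi microglia (515 and 204 CPM, 0.397, 0.230 to 0.662), where it lay between 0.230 and 0.630 under the other settings.

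Nr4a1 encodes Nur77, an orphan nuclear receptor that is rapidly induced by antigen receptor signalling. It was 28.9 CPM in WT B cells and 85.5 CPM in twi B cells, from 38 UMIs in each, a ratio of 2.96 (1.84 to 4.77), which became 1.87 in cells with a Y-linked transcript and no Xist and 6.90 after thinning. After thinning, 1.54% of WT and 7.06% of twi B cells had a UMI, and the largest number in 1 cell was 7 in WT and 6 in twi. Neutrophils had 180 and 349 CPM (1.94, 1.44 to 2.60). In monocytes, where it was among the highest, it was 274 and 345 CPM (1.26, 0.920 to 1.74). It was at the limit of detection in microglia (4 UMIs in WT and 0 in twi) and γδ T cells (0 and 2 UMIs).

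The feedback genes Dusp1 and Zfp36 were both higher in twi neutrophils. Dusp1 encodes a phosphatase that switches off p38 and JNK. It was 695 CPM in WT and 1125 CPM in twi neutrophils (1.62, 1.38 to 1.89) but 539 and 313 CPM in NK cells (0.580, 0.453 to 0.740) and 861 and 629 CPM in monocytes (0.731, 0.600 to 0.891). The monocyte ratio ran from 0.466 without cells of a second class to 1.07 with classes set by summed marker UMIs, so its direction turned. Its interval included 1 in CD4 T cells (1.00, 0.661 to 1.53), CD8 T cells and B cells. Zfp36 encodes tristetraprolin, which directs AU-rich mRNAs, Fos and Tnf among them, to decay. It was 809 CPM in WT and 1305 CPM in twi neutrophils (1.61, 1.39 to 1.86; 2.42 in cells with a Y-linked transcript and no Xist, 6 of them in twi). B cells had 469 and 344 CPM (0.734, 0.611 to 0.878). In CD8 T cells it was sparse (115 and 85.8 CPM), with an interval that included 1 (0.744, 0.540 to 1.04), as it did in CD4 and γδ T cells.

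Finer marker gates showed that these class values were themselves mixtures. B cells were split into an early gate (Rag1, Vpreb1, Igll1, Dntt, Mki67 or Top2a; 157 WT and 33 twi cells) and a mature gate (Ms4a1 or Fcer2a and none of these; 330 and 116 cells). In the early gate the sum was 6349 CPM in WT and 3798 CPM in twi (0.598, 0.544 to 0.657). Fos was 559 and 111 CPM there, a ratio of 0.198 (0.110 to 0.333). In the mature gate the sum was 6394 and 7079 CPM (1.11, 1.05 to 1.17). Nr4a1 was 32.5 and 125 CPM (3.85, 2.16 to 7.01), Junb 1004 and 1699 CPM (1.69, 1.497 to 1.91) and Jun 1106 and 1410 CPM (1.28, 1.12 to 1.45), whereas Fos was 697 and 519 CPM (0.745, 0.611 to 0.904) and Zfp36 507 and 379 CPM (0.748, 0.591 to 0.938). The ratios of the sum in the gates lay on opposite sides of 1.

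Neutrophils were split by Ltf, Camp and Chil3, transcripts of immature cells, into 150 WT and 30 twi cells with at least 3 such UMIs and 80 and 35 cells with fewer, called mature. The mature cells had the higher level in both libraries, and they were a larger share of the neutrophils in twi. Immature cells had 4404 CPM in WT and 4565 CPM in twi (1.04, 0.951 to 1.13), and mature cells 11538 and 16272 CPM (1.41, 1.30 to 1.53). Mature cells had Fos at 2345 and 3472 CPM (1.48), Junb at 2970 and 4088 CPM (1.38), Dusp1 at 2110 and 3050 CPM (1.45), Zfp36 at 1477 and 2401 CPM (1.63) and Jun at 154 and 373 CPM (2.42). Each of these intervals lay above 1. That of Jun was wide (1.26 to 4.70) and rested on 19 UMIs in WT and 23 in twi, 9 of the latter in 1 cell. The WT mature gate held 1 cell of 9750 UMIs that were 87.2% haemoglobin, and without it the ratio of the sum was 1.30 (1.20 to 1.41). In immature cells the intervals for Jund (0.637) and Dusp1 (0.714) lay under 1 and that for Nr4a1 (1.94) above 1.

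CD8 T cells with Ccr7 or Lef1, the genes of recirculating cells, numbered 41 in WT and 23 in twi, and those with Cxcr6, Ccl5 or Gzmb, the genes of effector cells, 12 and 199. The summed ratio was 0.789 (0.677 to 0.917) in the first and 0.719 (0.625 to 0.832) in the second, so it was under 1 in each gate. Fos was 740 and 337 CPM in the first (0.455, 0.291 to 0.693) and 462 and 281 CPM in the second (0.608, 0.399 to 0.968). Junb was 982 and 1196 CPM in the first (1.22, 0.935 to 1.58) and 1559 and 820.5 CPM in the second (0.526, 0.418 to 0.670). The direction of the sum over all CD8 T cells turned among cells with a Y-linked transcript and no Xist, 48 in WT and 58 in twi, where its ratio was 1.06, while that of Fos was 0.644. Sex and genotype cannot be told apart for the cells outside this subset.

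**Figure D4:**
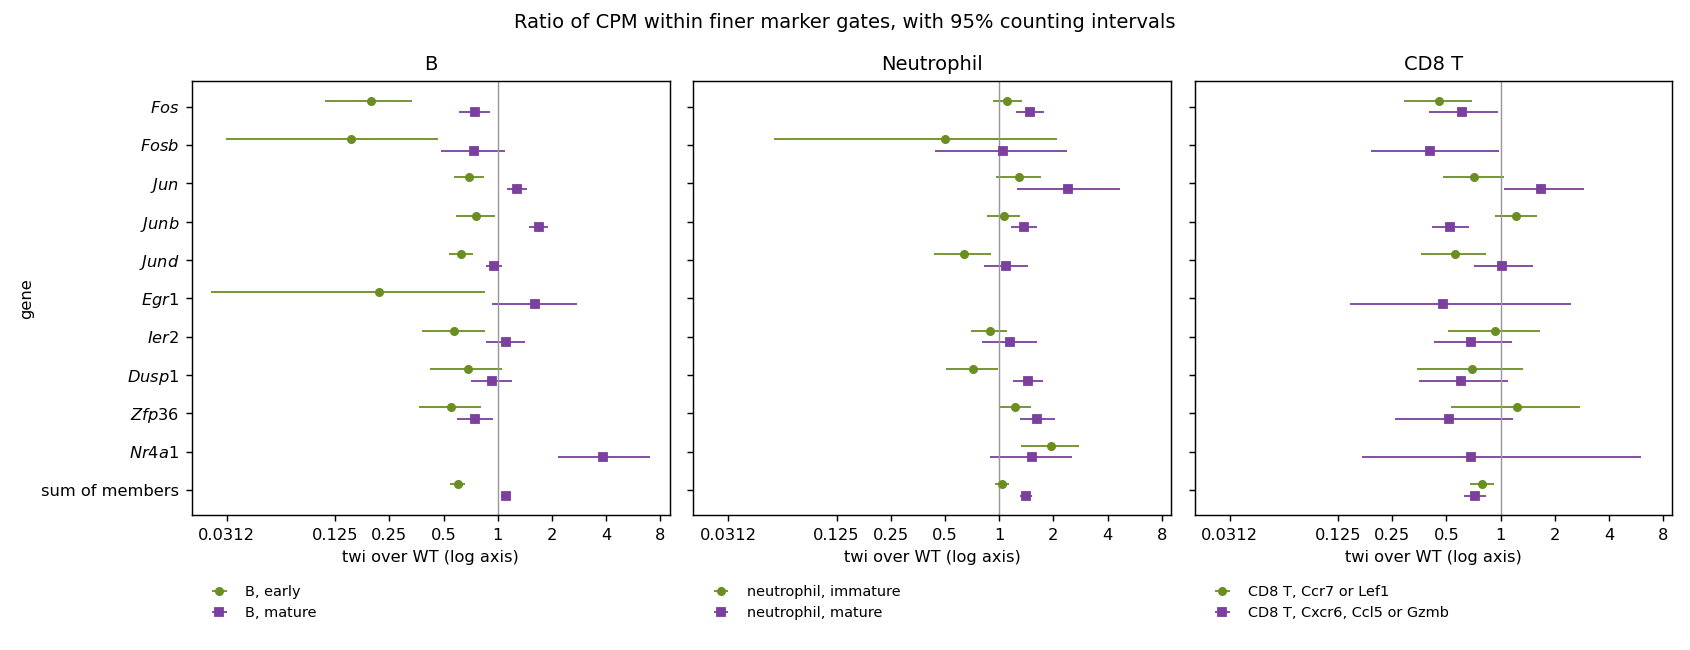
Ratio of CPM, twi over WT (log axis), with 95% counting intervals for each gene and the sum in the finer gates of B cells, neutrophils and CD8 T cells; genes with fewer than 20 UMIs over both libraries in a gate, or 0 in 1 library, are not drawn. Early and mature B cells lie on opposite sides of 1 for Jun and Junb, and mature neutrophils lie above 1 for Fos, Jun, Junb, Dusp1 and Zfp36.

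The number of members seen in the same cell gave a view that does not rest on a few cells with many UMIs. With each cell thinned to 1000 UMIs, at least 5 of the 10 genes had a UMI in 37.2% of WT and 13.8% of twi NK cells, with intervals of 27.5 to 47.8% and 7.57 to 22.5%. Neutrophils went the other way, with 30.8% in WT (24.5 to 37.7%) and 46.9% in twi (34.3 to 59.8%), intervals that overlapped. Their mature cells had 28 of 56 in WT (36.3 to 63.7%) and 25 of 34 in twi (55.6 to 87.1%), also with overlapping intervals. Immature cells did not go this way, with 23.4% of 145 WT cells and 16.7% of 30 twi cells. The larger share of mature cells among twi neutrophils is thus mixed into the value of the class. Microglia had 46.4% in WT (13 of 28 cells, 27.5 to 66.1%) and 11.8% in twi (2 of 17 cells, 1.46 to 36.4%), again with overlapping intervals. B cells did not differ beyond counting error, at 18.0% and 15.9%. Without thinning the shares were 72.3% and 63.8% in NK cells and 77.6% and 89.1% in neutrophils. Thinning left out the cells under 1000 UMIs, 106 in WT and 20 in twi, of which 24 and 1 were mature neutrophils.

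**Figure D5:**
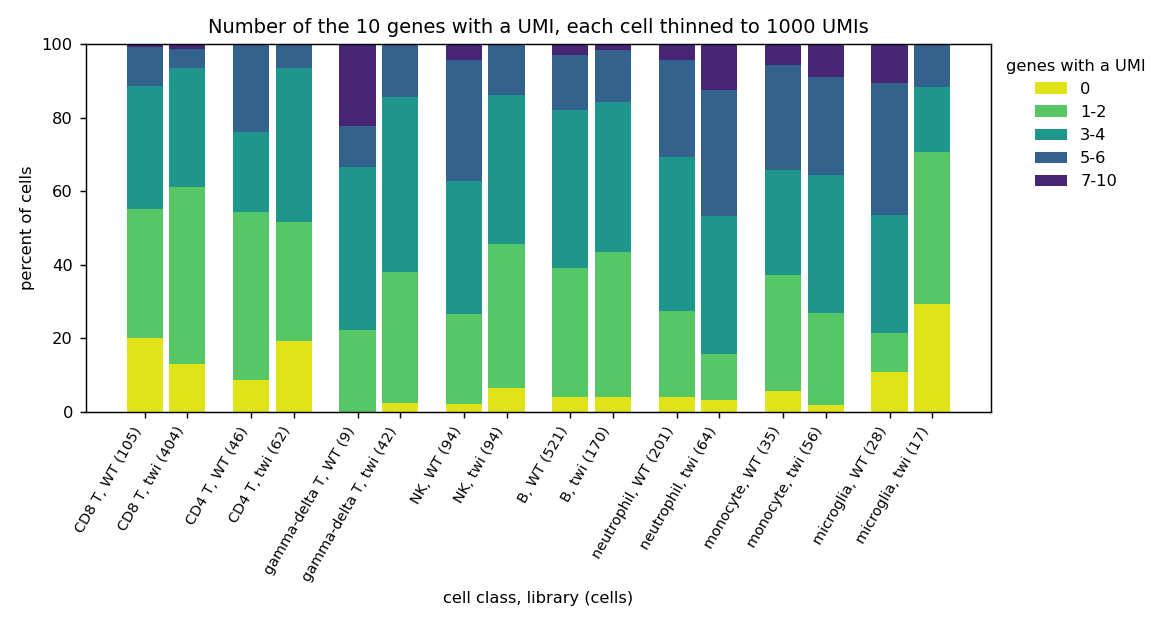
Percent of cells (bars from 0 to 100) by how many of the 10 genes had a UMI, each cell thinned to 1000 UMIs, for the 8 classes in each library; the number of cells stands in brackets. The dark segments, 5 or more genes, are shorter in twi for NK cells and microglia and taller in twi for neutrophils. The counting intervals of this share overlap between the libraries in microglia and neutrophils.

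The low level in twi microglia rested on 18 cells. These cells had a median of 4337.5 UMIs against 3115.5 in the 30 WT cells and a higher median mitochondrial share, 1.92% against 0.938%. Neutrophil RNA was higher in the WT cells. At the proportion over all WT neutrophils it would carry 440 of the 10064.5 CPM, and at that of the mature neutrophils more. The parts of carried RNA and of the microglial makeup in the difference were not tested. Leaving out cells with markers of a second class, which left 15 WT and 12 twi cells, gave a ratio of 0.312. Weighting every cell the same gave 0.258, so the size of the difference was not fixed beyond its direction. For Dusp1 the direction itself turned, to 1.19 without the cells of a second class.

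The related genes were read from lists, by their counts past 1.5-fold and their medians, which stand beside the shares of all genes given above for each class. Of 24 other early response genes, 9 of 16 tested in neutrophils were higher and 1 lower in twi (10.8% and 30.9% of all genes), with a median ratio of 1.60. Nfkbia, the inhibitor of NF-κB, was 533 and 1605 CPM there (3.01). In microglia 1 of 15 was higher and 10 were lower (20.3% and 21.8% of all genes), with a median of 0.595. Btg2, an antiproliferative gene, was 1461 and 362 CPM (0.248), and Klf2, a factor of quiescent leukocytes, 1564 and 539 CPM (0.345). In CD8 T cells 2 of 18 were higher and 2 lower (21.8% and 8.79% of all genes), with a median of 1.02. The members' median there was 0.848, with Fos, at 0.402, the lowest member. Klf2 was 1694 and 793 CPM in these cells (0.468).

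The counts of the other lists rest on 4 to 12 genes each, beside 21.8% of all genes higher and 8.79% lower in CD8 T cells, 11.4% and 12% in NK cells and 10.8% and 30.9% in neutrophils. The MAP kinase feedback genes had 4 of 8 tested in CD8 T cells, 2 higher and 0 lower, with Dusp2, a phosphatase of activated lymphocytes, at 204 and 414 CPM (2.04). In NK cells, 0 of 4 were higher and 1 lower, with a median of 1.21. Dusp2 was 457 and 671 CPM there (1.47, 1.19 to 1.82), just under the 1.5-fold limit. The AP-1 partner genes had 2 of 5 higher and 0 lower in CD8 T cells, Maf among them with 2.26 CPM in WT, from 1 UMI, and 26.0 CPM in twi, from 50 UMIs, a ratio of 11.5 (1.97 to 463). Genes of the upstream kinases and factors gave 3 higher and 3 lower of 12 in CD8 T cells and 0 and 3 of 6 in neutrophils. The genes of mRNA decay gave 1 higher and 0 lower of 8 in CD8 T cells, and in neutrophils 1 and 1 of 5, with Zfp36l1, a paralog of Zfp36, at 40.1 and 97.0 CPM.

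Heat shock genes encode chaperones induced by protein damage. In all cells 1 of 12 was higher and 0 lower (11.5% and 15.9% of all genes), with a median of 1.21. That gene was Hspa1a, an inducible Hsp70 gene, at 1068 CPM in WT and 1649 CPM in twi (1.54). It was 1069 and 2190 CPM in B cells (2.05) and 1068 and 1962 CPM in NK cells (1.84). In CD8 T cells it was 1237 and 1242 CPM (1.00). Medians were 1.12 for the heat shock genes and 0.835 for the members in B cells. They were 1.23 and 0.637 in NK cells, and 0.998 and 0.848 in CD8 T cells. In neutrophils 1 of 10 was higher and 5 lower (10.8% and 30.9% of all genes, median 0.630), where the members' median was 1.44. The higher gene there was Hspa1a, at 160 and 301 CPM (1.87, 1.36 to 2.56), while Hsp90ab1 (0.362) and Hsp90aa1 (0.379) were among the lower. Hspa1a was also higher in twi γδ T cells (1.75) and monocytes (1.25), and its interval included 1 in CD4 T cells and microglia. In microglia the medians were 0.821 for the heat shock genes and 0.475 for the members, and in CD4 T cells 0.891 and 0.851. The part of isolation in either list was not tested.

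Over the 16 levels (8 classes in each library), 4218 genes were compared by how closely their log2 CPM resembled the members' mean pattern. D1Ertd622e (Pearson's r 0.805) and Btg2 (0.778) were among the closest. The members themselves followed a shared pattern unevenly. With the mean of the other members, r ran from 0.0819 for Nr4a1 to 0.759 for Ier2. The points share libraries and depth, so this is a description only.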

How the data were processed

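For each library the authors deposited a matrix of UMI counts, genes by cell barcodes, without normalization. Reads had been aligned with STAR; Cell Ranger 2.1.1 and mm10 stand in the submitters' processing notes. The 10 genes, the lists and the tests were chosen with earlier results of these data known. Cells were assigned to 8 classes from 6 markers each, of which 4 of the T markers are among the genes of the files. The γδ gate first planned needs Trdc, which is not among them, so at least 2 UMIs over 7 genes of IL-17-type γδ T cells were required in T cells without Cd4, Cd8a and Cd8b1, a gate chosen after the gene names were read. T cells in none of these gates and unassigned cells count in the pooled values only. UMIs were summed per class and library and divided by all UMIs of the class (CPM), with exact Poisson intervals, exact conditional intervals for ratios and Clopper-Pearson intervals for shares (scipy 1.17.1), all at 95%. The intervals were tried on simulated Poisson counts, the model that they assume. That trial cannot show how they hold for UMIs that cluster within cells. Thinning drew 1000 UMIs per cell. Patterns were compared as log2(CPM + 5) over genes with at least 100 UMIs in each library and 50 CPM in 1 class. Doublets were not called; 10.6% of assigned WT cells and 15.7% of assigned twi cells had at least 2 markers of a second list. The genes named are all 10 members, and of each related list those among its 4 most counted. The Y-linked and haemoglobin comparisons and the other settings are alternatives; those on neutrophil RNA, haemoglobin and finer classes were chosen after seeing the data. One item is not reported here.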

Additional observations from a re-analysis of the deposited data

Results flagged for a closer look

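The difference between genotypes ran in opposite directions in different classes, with counting intervals on either side of 1, for the sum and for 5 members; with 1 library per genotype the differences between classes were not tested. The summed level was 1.46 times as high in twi as in WT in neutrophils and 0.427 times in microglia, and within B cells the ratio was 1.11 in the mature gate and 0.598 in the early gate. Fos had a ratio of 1.53 in neutrophils and 0.402 in CD8 T cells. Jun had 1.57 in monocytes and 0.320 in microglia. Junb had 1.62 in neutrophils and 0.530 in γδ T cells. Dusp1 had 1.62 in neutrophils and 0.433 in γδ T cells, of which WT held 10; the latter ran from 0.0893 after thinning to 2.81 with 3 markers required, so its direction turned. Zfp36 had 1.61 in neutrophils and 0.603 in NK cells.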

How the results depend on the processing

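No paired analysis was possible because each genotype has 1 library. For the same reason no library was left out, and animal, pool, sex and genotype cannot be told apart. A ratio is called moved when it left the counting interval of the reported value, and a count of members when it changed by more than 1.5-fold. The cause was not tested. A turn to the other side of 1 was counted only where the counting interval of the reported value excluded 1. The interval of the monocyte sum (0.944 to 1.07) included 1, so its values under 1 are not in that count. Of 135 recomputed sums and counts, 95 stayed the same by these rules, 38 moved and 2 turned to the other side of 1. Those 2 were the sum at the WT class shares when thinned (1.00172) and the sum in CD8 T among the Y cells (1.06).

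The pooled ratio of the sum, 0.725, became 0.741 in cells with at least 1000 UMIs, 0.777 with each cell thinned to 1000 UMIs, 0.799 without mitochondrial, ribosomal protein and member UMIs in the denominator, 0.816 in cells with a Y transcript and no Xist, and 0.662 without Junb. At the WT class shares, 0.971 became 1.00172 when thinned, 0.942 in the Y cells, 0.917 without Junb, 0.945 without cells of a second list, 0.909 with 11 classes by the finer gates and 0.849 at the twi shares.

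By class, thinning gave 0.931 in CD8 T, 0.480 in γδ T, 0.849 in NK, 1.56 in neutrophils and 0.289 in microglia, and the other denominator 0.770 in CD8 T. The Y cells gave 1.06 in CD8 T, 0.338 in CD4 T (31 WT and 12 twi cells), 0.486 in γδ T, 0.809 in B, 1.70 in neutrophils (64 and 6 cells) and 0.538 in microglia (18 and 4 cells). With every cell weighing the same the ratio was 0.831 in CD4 T, 0.466 in γδ T, 0.895 in NK, 0.907 in monocytes and 0.258 in microglia. Without Junb it was 0.733 in NK and 0.814 in B. Requiring 3 markers gave 0.815 in γδ T. Leaving out cells of a second list gave 0.530 in γδ T, 0.776 in monocytes and 0.312 in microglia (15 WT and 12 twi cells). Classes by summed marker UMIs gave 0.786 in γδ T, 1.28 in neutrophils, 1.35 in monocytes and 0.378 in microglia. In all these settings the sum stayed above 1 in neutrophils and below 1 in CD4 T, γδ T, NK, B and microglia. With a 2-fold threshold, 1 member value in place of 8 was higher and 10 in place of 26 were lower over the 8 classes. The share of all genes past 2-fold was not computed, so these 2-fold counts cannot be set against a background.

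Of 570 recomputed ratios of single genes, 9 turned to the other side of 1 by the same rule. In the Y cells these were Fos in γδ T (2.06), Junb in CD8 T (1.12) and Dusp1 in microglia (1.49), and with thinning Jun in neutrophils (0.989) and Ier2 in NK (1.08). Without cells of a second list they were Junb in monocytes (0.983) and Dusp1 in microglia (1.19), with 3 markers Dusp1 in γδ T (2.81), and by summed marker UMIs Dusp1 in monocytes (1.07). The pooled ratios of Junb and Nr4a1 had intervals that included 1, so they were not counted. Pooled Junb reached 1.08 without mitochondrial, ribosomal protein and member UMIs in the denominator, and pooled Nr4a1 1.09 when thinned.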

Other observations

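The cells of each class were ordered by their member UMIs after thinning to 1000, and the top 10% were compared with the rest for genes that were not used for the order. The 24 other early response genes made up 20421 CPM of the top 7 twi neutrophils and 6618 CPM of the others, 13793 and 8465 CPM of the top 53 and the other 468 WT B cells, and 8556 and 5836 CPM of the top 10 and the other 84 twi NK cells. The heat shock genes made up 2618 and 1610 CPM in the same twi neutrophils, 7292 and 6804 CPM in the WT B cells and 13057.5 and 8741 CPM in the twi NK cells. In CD8 T cells the heat shock genes were 11372 and 7107 CPM in WT and 10893 and 7462 CPM in twi. The top cells were shallower in CD8 T cells, with a median of 2533 against 4259 UMIs in twi, and in neutrophils, with 1389 against 2433 UMIs in twi, and close in depth in WT B cells, with 2017 against 2062 UMIs. Depth and the high level cannot be told apart in the shallower cells.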
